A study of Mus musculus with 8 samples.

Results

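The ISG15 conjugation and removal system was followed through 5 genes: the modifier Isg15, the E1 enzyme Uba7, the E2 enzyme Ube2l6, the ligase Herc6 and the protease Usp18. All probe sets that the array annotation assigns to these symbols were taken, including 1 that names Isg15 together with another gene, which gave 10 of the 45037 probe sets tested. Isg15, Usp18 and Ube2l6 had 1 probe set each, Uba7 had 3 and Herc6 had 4. Every array was hybridised with RNA of Lin-Sca+Kit+ haematopoietic stem cells from the fetal liver of 1 C57/B6 mouse. The groups were wild type (2 arrays), ADAR1 +/- (heterozygous, 3 arrays) and ADAR1 -/- (null, 3 arrays), with the embryonic age and the design of the null allele not given in the sources used here. ADAR1 is an enzyme that edits adenosines of double-stranded RNA to inosines. The comparisons address which transcripts change when both copies of the gene are lost, and whether the loss of 1 copy has an effect.

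ISG15 is a small protein built of ubiquitin-like folds that is strongly induced by type I interferon and by viral infection. It is joined to lysines of target proteins by an enzyme cascade like that of ubiquitin: UBA7 activates it, UBE2L6 carries it and a HERC-family ligase, HERC6 in the mouse, transfers it. USP18 cuts ISG15 from its targets and, apart from its protease activity, binds the interferon receptor chain IFNAR2 and dampens signalling, so the system carries its own brake. All 5 genes are known targets of interferon signalling, which acts through promoter elements bound by STAT and IRF transcription factors.

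Promoter sequences of 4 of the 5 members were found in the RefSeq-derived table (build GRCm38.p6), and those with a match are shown because the members' transcripts are compared together below. Each sequence is the 250 bases before the annotated start, 5′ to 3′ on the gene's own strand. Capitals mark matches to the core of the interferon-stimulated response element (GAAANNGAAA) or the shorter IRF core (AANNGAAA), searched on both strands.
Isg15, chr4:156200819-156201068, minus strand: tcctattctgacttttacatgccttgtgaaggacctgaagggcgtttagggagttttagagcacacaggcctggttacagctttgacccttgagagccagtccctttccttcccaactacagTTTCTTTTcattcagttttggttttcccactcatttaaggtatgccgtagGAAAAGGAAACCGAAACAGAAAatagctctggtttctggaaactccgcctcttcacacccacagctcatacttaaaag
Uba7, chr9:107975317-107975566, plus strand: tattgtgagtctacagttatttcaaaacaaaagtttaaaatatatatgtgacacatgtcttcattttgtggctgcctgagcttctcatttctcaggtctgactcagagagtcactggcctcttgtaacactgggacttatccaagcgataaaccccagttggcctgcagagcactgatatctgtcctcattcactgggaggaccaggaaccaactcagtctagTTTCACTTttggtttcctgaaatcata

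The Isg15 window held 3 overlapping matches to GAAANNGAAA, which together span 78 to 57 bases before the start. A match to that motif was present in 2.98% of the 32851 promoter windows of this length. The same stretch holds 3 matches to AANNGAAA, which overlap the longer motif, and another lies on the opposite strand 128 to 121 bases before the start. The Uba7 window held 1 match to AANNGAAA, on the opposite strand 27 to 20 bases before the start, and none to the longer motif. The shorter motif was present in 21.3% of windows. The windows of Ube2l6 and Herc6 had no match to either, and none of the 4 windows matched the gamma-activated site core (TTCNNNGAA), which 7.02% of windows hold. These matches describe letters in the windows and no binding was measured.

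The quality of the arrays and the markers of the sorted cells were examined first. The background of an array was taken as the brightest of its 27 probe sets against Bacillus RNA and lay between 6.20 and 9.29 linear units, with 40.0% to 61.2% of probe sets above it. Of 8 stem and progenitor markers, 5 to 8 were above background on each array and 0 passed the test in any comparison with limma (0 to 1 had an unadjusted p under 0.05). Kit, a sorting marker, was dim at 9.33 to 23.5 units on its brightest probe set, and Ly6a, which encodes Sca-1, had no probe set naming it alone. The summed level of 5 hepatocyte markers was 42.3 to 62.9 units on null arrays, 185 to 603 on wild-type arrays and 608 to 1041 on heterozygous arrays. Limma called 2 of them, Afp and Apoa2, lower in null than in heterozygous cells (0.313% of genes). It called Afp lower in null than in all controls (0.253% of all probe sets), and 0 of the 5 against wild type (0.107%). The summed level of 8 macrophage markers was 53.0 to 59.4, 136 to 660 and 166 to 330 in the same order of groups, with Adgre1 and Vsig4 at or below background on every array. The sum of 4 plasmacytoid dendritic cell markers came to 279 to 546 units on null arrays and 52.7 to 153 on control arrays, most of it from Tcf4 on the null arrays, while the defining marker Siglech read 6.32 to 11.7 on null and 6.46 to 10.1 on control arrays. Limma called 0 of 4 lineage, 4 erythroid, 8 macrophage, 4 plasmacytoid dendritic and 6 endothelial markers in any comparison, with at most 0, 2, 3, 1 and 3 at an unadjusted p under 0.05. Of all probe sets, 5.37% to 11.5% had such a p, depending on the comparison. The part of these other cells in the levels given below was not tested, and in bulk RNA fewer cells of a type and less RNA per cell cannot be told apart. By Xist and Eif2s3y, null array 1 and heterozygous arrays 1 and 3 had the pattern of males.

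**Figure D1:**
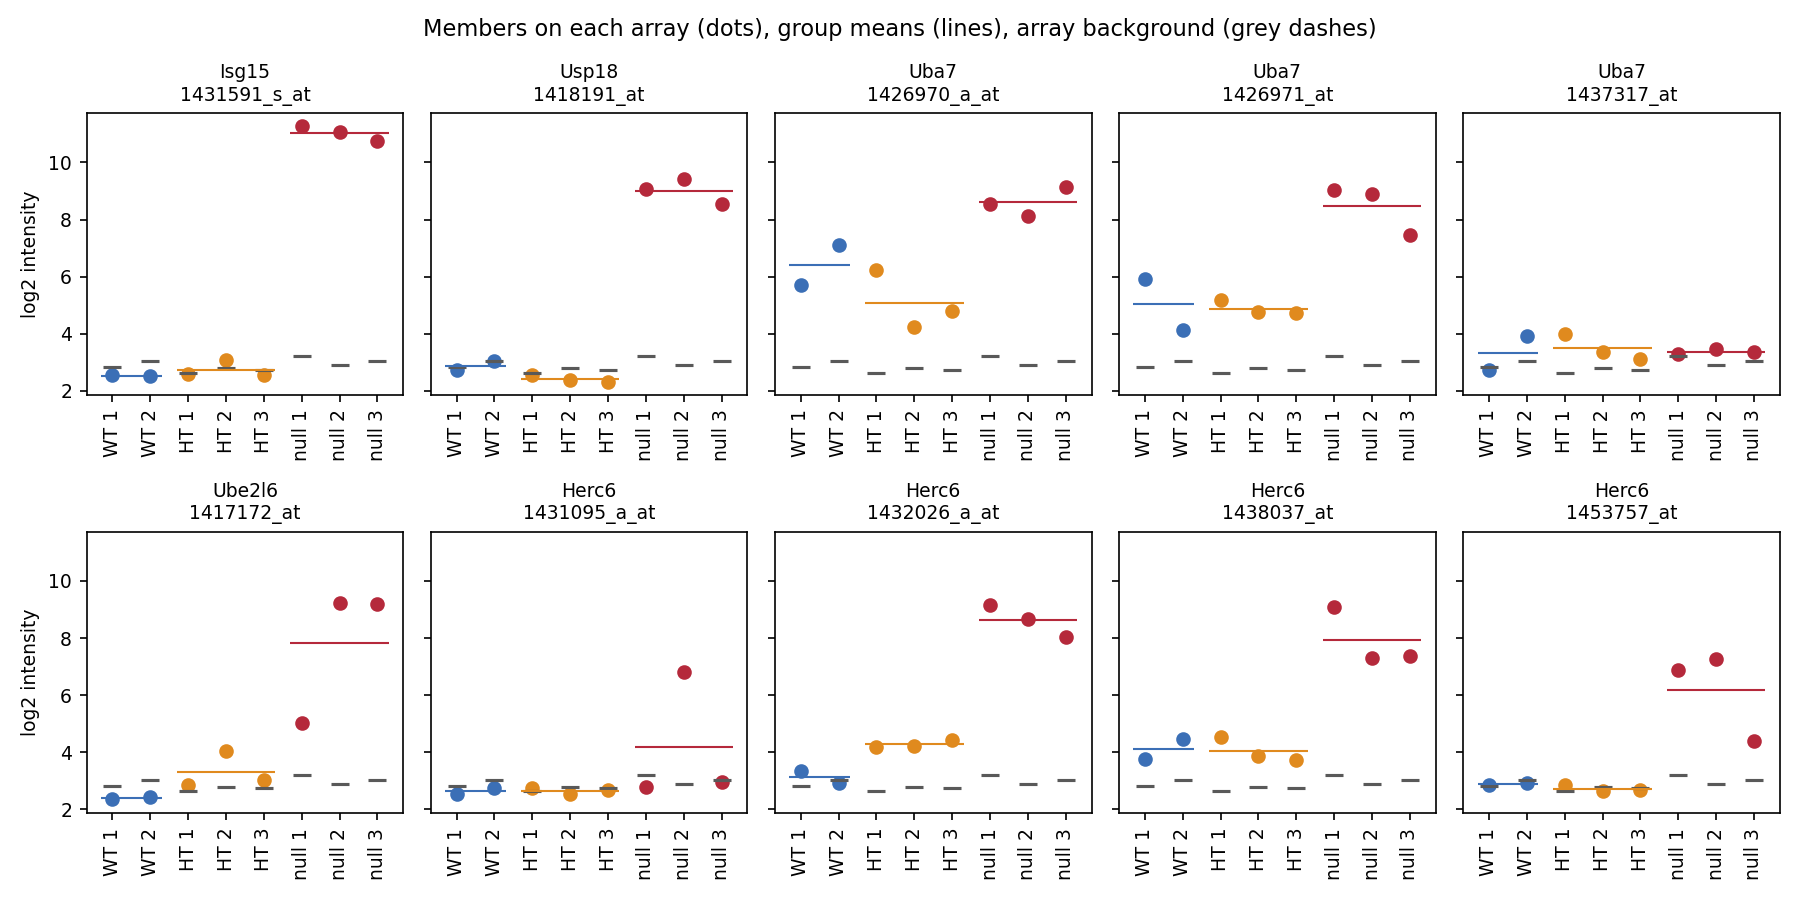
Log2 intensity (vertical axis) of the 10 member probe sets on each of the 8 arrays, with 1 dot per array, lines at group means and grey dashes at the background of each array; WT is wild type and HT heterozygous. The 3 null dots lie above all 5 control dots in 9 panels, and in the panel of Uba7 1437317_at they lie among them.

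Null arrays read higher than every control array on 9 of the 10 member probe sets, a pattern seen in 3.89% of all probe sets. Limma called 5 of the 10 higher in null than in all controls (0.329% of all probe sets were called higher), 4 higher than in heterozygous cells (0.262%) and 3 higher than in wild type (0.220%). None was called lower (0.253%, 0.240% and 0.107% of all probe sets), and 8 of the 10 had an unadjusted p under 0.05 in each of them (11.5%, 11.3% and 7.63% of all probe sets). The calls covered Isg15, Usp18 and Herc6 in every comparison with null, and Uba7 in the comparison with all controls. The 3 comparisons share the null arrays and partly the control arrays, so they are not separate tests of the same effect.

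Isg15, the modifier itself, was measured by 1431591_s_at. The suffix marks a probe set that matches more than 1 gene, and the annotation names the pseudogene Gm9706 beside Isg15, so a contribution of its transcripts cannot be told apart. The null arrays read 2495, 2122 and 1733 linear units. The wild-type arrays read 5.81 and 5.69, and the heterozygous arrays 5.97, 8.41 and 5.82. Of the 5 control arrays only heterozygous array 2 was above its background, whereas every null array was above its background. In log2 intensity the group means were 2.52 ± 0.02 (SD, n = 2) in wild type, 2.73 ± 0.30 (n = 3) in heterozygous and 11.03 ± 0.26 (n = 3) in null cells.

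Isg15 had the smallest p of all 45037 probe sets in each of the 3 comparisons with null. Only 1 of the 5 control arrays was above background for it, so the size of the difference is limited by the background. Null exceeded wild type by 8.51 ± 0.23 log2 units (SE; limma, adjusted p = 0.000202), which is at least 275-fold when the wild-type level is set at background. It exceeded heterozygous cells by 8.30 ± 0.20 (adjusted p = 0.000112) and all controls by 8.38 ± 0.18 (adjusted p = 3.86e-06). These calls held under all 18 alternative settings, with adjusted p up to 0.0223 against wild type.

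Uba7 encodes the E1 enzyme that activates ISG15, and its 3 probe sets did not behave alike. On 1426971_at the null arrays read 529, 472 and 176 linear units, the wild-type arrays 61.0 and 17.6 and the heterozygous arrays 36.0, 27.1 and 26.4. All 3 null values were above all 5 control values, and null array 3 was the lowest of the 3. Null exceeded all controls by 3.52 ± 0.48 log2 units, or 11.5-fold (limma, adjusted p = 0.0237). Against heterozygous (3.58 ± 0.57, adjusted p = 0.0755) and wild-type cells (3.43 ± 0.64, adjusted p = 0.157) the difference had a like size and did not pass. That call ended without any 1 of the 3 heterozygous arrays (adjusted p = 0.0747, 0.0793 and 0.0810 without arrays 1, 2 and 3), without null array 1 (0.0724) and with wild type and heterozygous averaged as separate groups (0.0535). The call against heterozygous cells was gained without null array 3 (0.0464) and with the filter on background (0.0487).

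The brighter Uba7 probe set, 1426970_a_at, read 375, 279 and 569 units on the null arrays. It read 52.2 and 137 in wild type and 75.2, 18.8 and 27.9 in heterozygous cells. Here null array 3 was the highest of the null arrays and wild-type array 2 the highest of the controls, the reverse of their order on 1426971_at. The ratio of the first probe set to the second was 7.78 on wild-type array 2, 3.23 on null array 3, 2.09 on heterozygous array 1 and between 0.592 and 1.06 on the other 5 arrays. Null exceeded all controls by 2.995 ± 0.63 log2 units (limma, adjusted p = 0.117), heterozygous by 3.52 ± 0.61 (0.0940) and wild type by 2.21 ± 0.68 (0.449). None of these passed under any of 18 alternatives, although the groups did not overlap.

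The third Uba7 probe set, 1437317_at, read 9.70, 11.1 and 10.4 units on the null arrays, 6.66 and 15.1 in wild type and 15.8, 10.3 and 8.65 in heterozygous cells. It was dim on all 8 arrays, and the null values lay among the control values. Null and all controls differed by -0.05 ± 0.29 log2 units (95% confidence interval -0.73 to 0.63; limma, adjusted p = 0.960). The annotation credits the first 2 probe sets to the same source transcript and this one to another; the positions of the probes were not used here.

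Ube2l6 encodes the E2 enzyme that carries ISG15 from UBA7 to the ligase. It read 32.8 units on null array 1, 599 on null array 2 and 590 on null array 3. The wild-type arrays read 5.16 and 5.403, both at background, and the heterozygous arrays 7.17, 16.6 and 8.12, all above it. Every null array was above every control array, but null array 1 was 18.0-fold below the next null array. Such a gap of at least 3 log2 units below both other null arrays (a size chosen after the values were seen) occurred for null array 1 in 0.331% of probe sets, for null array 2 in 0.0466% and for null array 3 in 0.213%. These shares are over all probe sets, of which 40.0% to 46.4% were above background on the null arrays. Probe sets near background on all null arrays have little room for such a gap. Null array 1 also had the fewest probe sets above background (40.0%) and the highest background, and it alone of the null arrays had the pattern of males. Over the 10 member probe sets it was the highest null array on 4 and the lowest on 3. Whether any of this bears on its Ube2l6 value was not tested.

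With that spread, the Ube2l6 difference was large and did not pass. It was 5.42 ± 1.25 log2 units against wild type (at least 29.8-fold; limma, adjusted p = 0.259), 4.52 ± 1.12 against heterozygous (0.219) and 4.88 ± 0.97 against all controls (0.0958). Without null array 1 it passed in all 3 comparisons, at 6.82 ± 0.41 (adjusted p = 0.00638), 5.91 ± 0.37 (0.00692) and 6.27 ± 0.45 (0.00269). Against all controls it also passed when the variance was modelled with an intensity trend (0.0477).

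Herc6, the ligase that serves ISG15 in the mouse, had 4 probe sets. The brightest, 1432026_a_at, read 577, 406 and 265 units on the null arrays, 10.2 and 7.50 in wild type and 18.2, 18.5 and 21.7 in heterozygous cells. The 3 groups did not overlap, with null far above heterozygous and heterozygous above wild type. Null exceeded wild type by 5.50 ± 0.33 log2 units, or 45.3-fold (limma, adjusted p = 0.00257; 1 of the 2 wild-type arrays was above background), heterozygous by 4.35 ± 0.29, or 20.4-fold (0.00311), and all controls by 4.81 ± 0.41, or 28.1-fold (0.00236). The calls against heterozygous cells and all controls held under all 18 alternatives, and the call against wild type was lost with the arrays of those 2 groups alone (0.0919).

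A second Herc6 probe set, 1438037_at, read 547, 157 and 167 units on the null arrays against 13.7 and 22.1 in wild type and 23.0, 14.6 and 13.3 in heterozygous cells. The lowest null array was above the highest control array. Its difference was 3.85 ± 0.44 log2 units against all controls (14.4-fold; limma, adjusted p = 0.00909), 3.88 ± 0.52 against heterozygous (0.0392) and 3.80 ± 0.58 against wild type (0.0789). The call against heterozygous cells was lost under 10 of 17 alternatives. These included leaving out any of the 5 control arrays (0.0679 without either wild-type array, and 0.130, 0.170 and 0.172 without heterozygous arrays 1, 2 and 3) or null array 3 (0.0604). The call against wild type was gained without null array 1 (0.0414), and that against all controls was lost with a pseudocount of 32 (0.0534).

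On 1453757_at null arrays 1 and 2 read 118 and 153 units and null array 3 read 21.1, while the control arrays read 6.24 to 7.50. The difference against all controls was 3.40 ± 0.59 log2 units (limma, adjusted p = 0.0609). It was 4.29 ± 0.15 without null array 3 (0.000105), when the differences against wild type (4.20 ± 0.18, 0.00183) and heterozygous cells (4.35 ± 0.17, 0.00108) passed as well. Against all controls it also passed with quantile (0.0393) or cyclic loess normalization (0.0437), the filter on background (0.0390) and an intensity trend (0.0302). The fourth probe set, 1431095_a_at, was above background on 1 null array only: it read 112 units on null array 2, 6.95 and 7.82 on null arrays 1 and 3 and 5.77 to 6.76 on the control arrays. Its difference against all controls was 1.54 ± 0.85 (adjusted p = 0.526). The 4 Herc6 probe sets thus put the 3 null arrays in different orders, which the plot of the spread among null arrays shows.

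**Figure D2:**
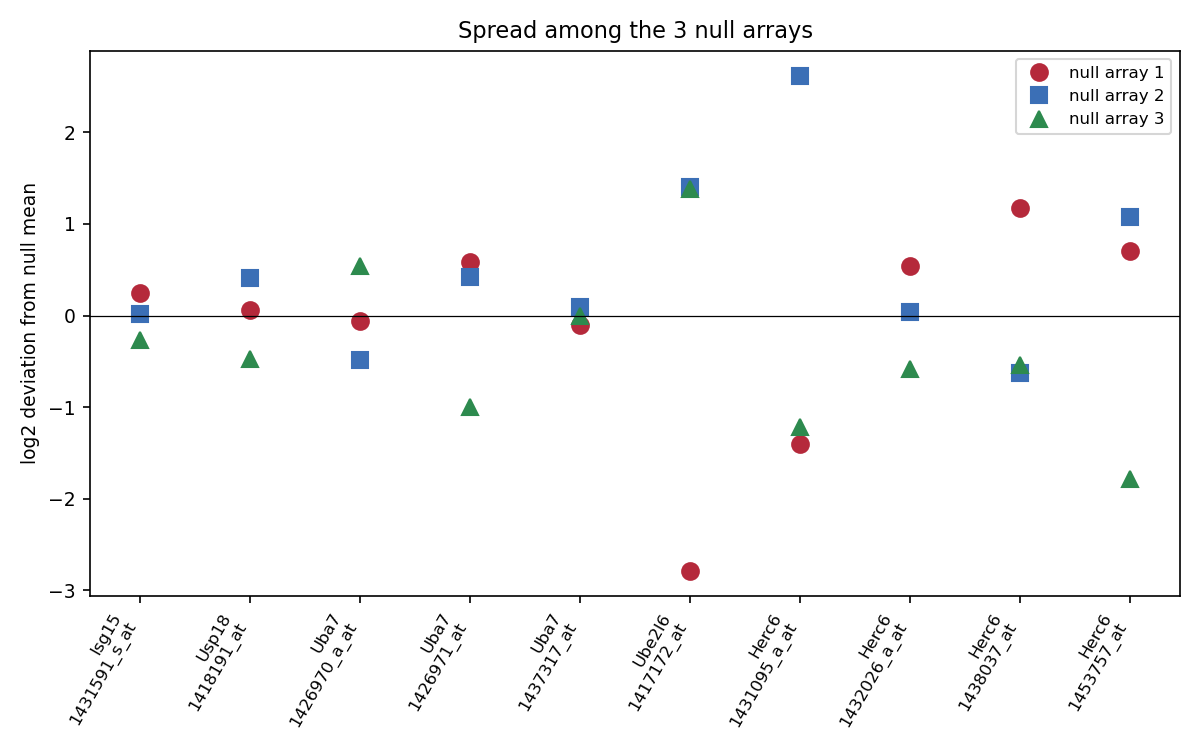
Deviation of each null array from the null mean in log2 units (vertical axis) for the 10 member probe sets (horizontal axis), with 1 symbol per array. Isg15 and Usp18 lie within 0.5 of their mean, Ube2l6 has null array 1 at -2.79, and Herc6 1431095_a_at has null array 2 at 2.62.

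Usp18 encodes the protease that removes ISG15. Its probe set, 1418191_at, read 541, 688 and 374 units on the null arrays, 6.61 and 8.18 in wild type and 5.92, 5.16 and 4.99 in heterozygous cells. The 3 heterozygous arrays and wild-type array 1 were at or below background, and the null arrays lay far above all of them. The group means were 2.88 ± 0.22 (SD, n = 2), 2.42 ± 0.13 (n = 3) and 9.02 ± 0.44 log2 units (n = 3) in wild type, heterozygous and null. Null exceeded wild type by 6.14 ± 0.27 (limma, adjusted p = 0.000753) and all controls by 6.42 ± 0.24 (5.08e-05). Only 1 of the 5 control arrays, wild-type array 2, was above its background, so no fold is given for these. The difference from heterozygous cells was 6.60 ± 0.24, or at least 78.4-fold (0.000385). By p it ranked 7th, 5th and 4th of all probe sets against wild type, all controls and heterozygous. The call against wild type was lost with the arrays of those 2 groups alone (0.0540) and held under the other 17 alternatives. With a pseudocount of 32 the difference from all controls shrank to 3.85 on the log2 scale and still passed.

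**Figure D3:**
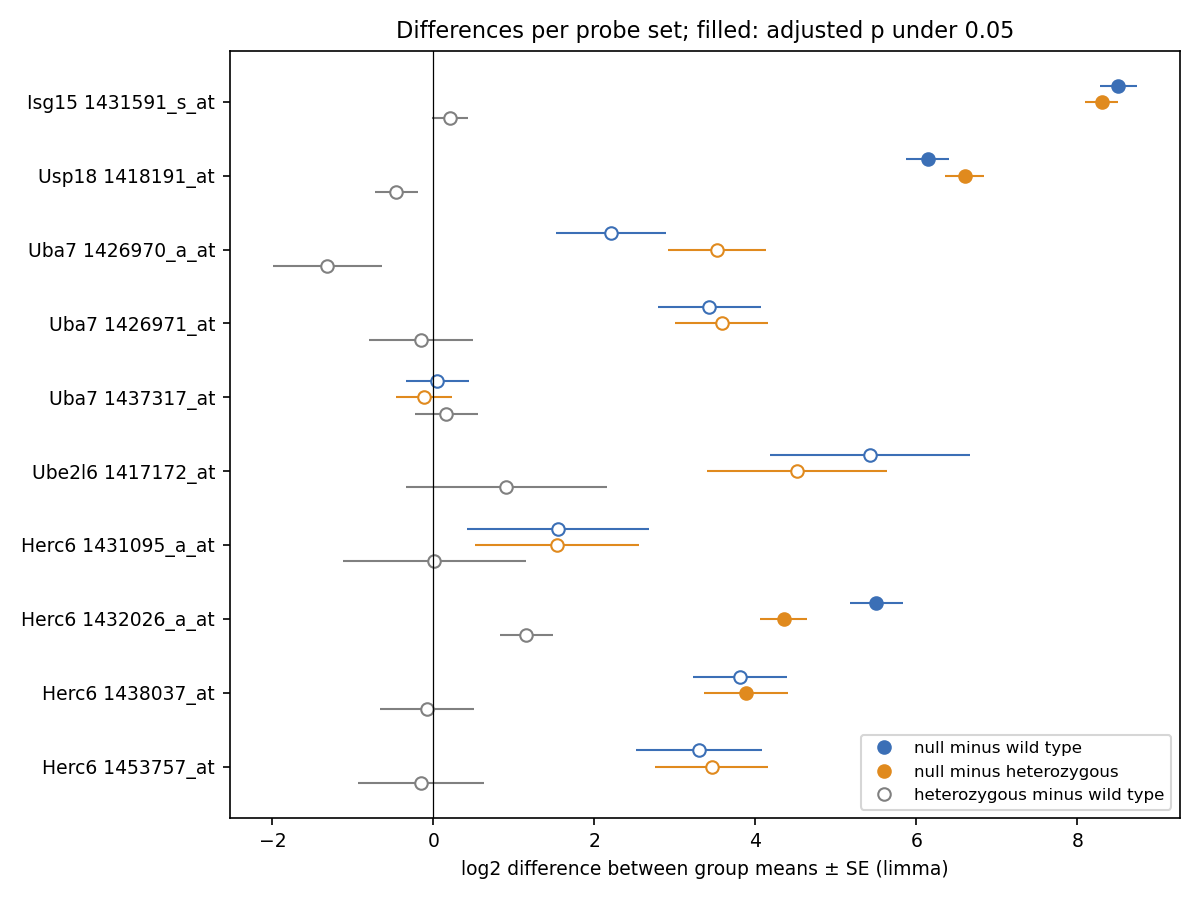
Log2 differences between group means with limma standard errors (horizontal axis) for the 10 member probe sets, for null minus wild type (blue), null minus heterozygous (orange) and heterozygous minus wild type (grey). Filled symbols passed an adjusted p of 0.05: 3 of the blue, 4 of the orange and 0 of the grey symbols.

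The loss of 1 copy of the gene was examined by setting heterozygous against wild-type arrays. Limma called 0 of the 10 member probe sets in either direction (0.00222% of all probe sets were called), and 1 had an unadjusted p under 0.05 (5.37% of all probe sets). That was Herc6 1432026_a_at, which read 18.2 to 21.7 units in the heterozygous and 7.50 and 10.2 in the wild-type arrays, a difference of 1.15 ± 0.33 log2 units (unadjusted p = 0.0105, adjusted p = 0.891; no lower than 0.354 under the alternatives). The 2 groups did not overlap, with heterozygous higher on 3 member probe sets (Isg15, Ube2l6 and this one; 11.4% of all probe sets do so) and lower on 1 (Usp18; 17.8%). The other Herc6 probe sets differed by -0.08, -0.15 and 0.01. Usp18 differed by -0.46 (95% confidence interval -1.10 to 0.18) and Isg15 by 0.21 (-0.34 to 0.75). For Ube2l6 the interval ran from -2.06 to 3.88. Its width rests on a spread pooled over the 3 groups, which was mostly that of the null arrays. The SD was 2.413 log2 units in null, 0.048 in wild type and 0.655 in heterozygous cells. With that pooled spread, a change of several-fold in either direction could not be detected. For Isg15, Usp18 and Ube2l6 the order among controls rests on values at or near background. On the brightest probe set of each of the 5 genes null had the highest group mean, and the difference between wild type and heterozygous did not pass. Uba7 1437317_at went against that order, with a mean of 3.49 log2 units in heterozygous and 3.37 in null, a difference that did not pass.

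**Figure D4:**
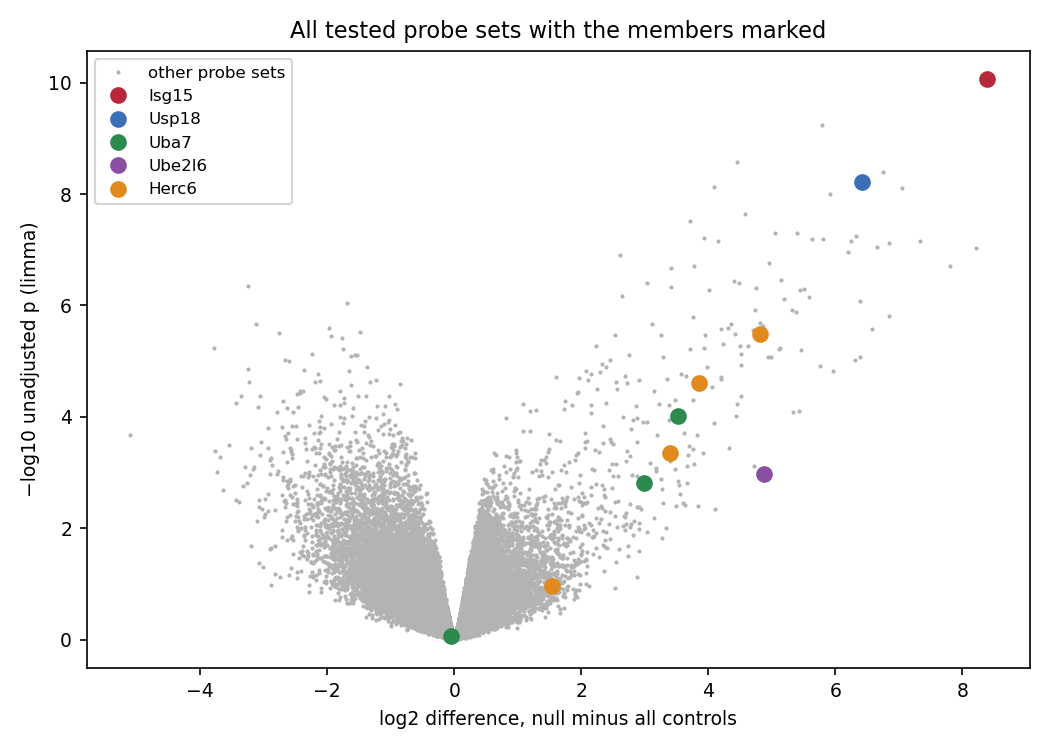
Log2 difference between null and all controls (horizontal axis) against the negative log10 of the unadjusted limma p (vertical axis) for 45037 probe sets, with the 10 member probe sets in colour. Isg15 lies at the upper right end, at 8.38 log2 units, and Uba7 1437317_at lies at the origin.

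Genes whose pattern over the 8 arrays was most like the members were sought with the mean of the 5 members' centred profiles, each from its brightest probe set. On that mean the null arrays lay at 3.04, 3.71 and 3.56 log2 units and the control arrays between -2.25 and -1.91. Each member was compared with the mean of the other 4: Pearson's r was 0.989 for Isg15, 0.988 for Usp18, 0.951 for Herc6, 0.855 for Ube2l6 and 0.828 for Uba7, against a median of 0.05 for all candidate probe sets with the mean of 5. The points are the same 8 arrays and share their group difference, so r describes mostly the step between null and control. The 8 most similar probe sets belonged to Slfn5 (r = 0.997), Rsad2 (0.995), Parp11 (0.994), Ifit1 (0.994), Gbp7 (0.993), Igtp (0.993), Gm20559 (0.992) and Nlrc5 (0.991).

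These probe sets were chosen for a profile like that of the members, so their differences between the groups are a description with no test. Slfn5, of the Schlafen family, read 283 to 378 units on null arrays and 4.92 to 6.87 on control arrays, a difference of 5.79 log2 units. Its control values were all below the background of their array, so the size of this difference is limited by the background. Parp11, a mono-ADP-ribosyltransferase, read 116, 139 and 151 on null arrays and 18.8 to 24.9 on control arrays, a difference of 2.61 log2 units. Nlrc5, the transactivator of MHC class I genes, read 102, 103 and 102 on the null arrays, a narrower range than any of the members that were called.

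The rest of the pathway was described from lists of related genes, each gene by its brightest probe set. The transcription factors that act at interferon-responsive promoters were higher in null cells with 1 exception. Of 5 measured, 4 were called higher than in heterozygous cells and 0 lower (0.456% and 0.313% of 18193 genes). Their median was 3.74 log2 units, beside 0.06 for all genes. Irf7, which amplifies interferon responses, rose by 5.54 ± 0.44 (limma, adjusted p = 0.00557), Irf1 by 3.81 ± 0.41 (0.0204) and Stat2, to which USP18 binds, by 3.74 ± 0.17 (0.000671). Irf9 was the fourth. Irf3 differed by -1.34 ± 0.34 and did not pass (0.233). Against wild type 2 of the 5 were called higher (0.390% of genes), Stat2 and Irf7.

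Genes of proteins reported to carry ISG15 moved in part. Of 12 measured, 5 antiviral genes known to be interferon-induced were called higher in null than in heterozygous cells: Ifit1 (7.81 ± 0.55), Ifih1 (5.91 ± 0.48), Mx1 (5.395 ± 0.40) and, outside the naming rule, Ddx58 (4.27 ± 0.54) and Eif2ak2 (2.80 ± 0.31; limma, adjusted p from 0.00376 to 0.0336). The other 7, among them Jak1, Pcna and Becn1, ran from -1.50 to -0.28 and did not pass, and the median of the list was -0.64. Of these 7, Pcna and Irf3 were lower at an unadjusted limma p under 0.05, which 11.3% of all probe sets had in either direction. Against wild type 4 of the 12 were called higher (0.390% of genes) and 0 lower (0.107% of all probe sets). The share of genes called higher than in heterozygous cells was 0.456%.

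Other enzymes and partners of ISG15 gave 0 calls in any of the 4 comparisons. Against heterozygous cells 11.3% of all probe sets had an unadjusted p under 0.05. Of 7 further ligases and deconjugating enzymes reported for ISG15, limma called 0 against heterozygous cells, and 1 had an unadjusted p under 0.05 (median 0.41). That was Trim25, a ligase for ISG15 and for the RNA sensor RIG-I, at 1.19 ± 0.28 (adjusted p = 0.197); Usp14 and Usp16 differed by -0.80 ± 0.89 and -0.80 ± 0.92. Of 5 partners of ISG15 or USP18, 0 were called and 1 had an unadjusted p under 0.05 (median -1.13). Skp2, of the ubiquitin ligase that targets USP18, differed by -2.61 ± 0.82 (0.337), Eif4e2 by -1.59 ± 0.91 (0.527) and Ifnar2 by -1.13 ± 0.99 (0.637).

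The lists of other modifiers and their enzymes gave 0 calls in the 4 comparisons as well, with values given here for null against heterozygous. In that comparison 11.3% of all probe sets had an unadjusted p under 0.05, in either direction, which is the share to set beside the unadjusted counts below. Of 14 modifiers listed 8 were measured, and no ubiquitin gene was among the 8. Of these, 0 were called and 0 had an unadjusted p under 0.05, with Ufm1, Nedd8 and Ubl5 at -0.63 ± 0.49, -0.53 ± 0.46 and 0.38 ± 0.43. Of 9 E1 enzymes listed 6 were measured, of which 0 were called and 2 had an unadjusted p under 0.05, both lower. These were Uba6 at -1.59 ± 0.34 (limma, adjusted p = 0.162) and Nae1 at -1.38 ± 0.50 (0.391). Atg7 stood at -0.59 ± 0.25, with an unadjusted p above 0.05. Of 27 other E2 enzymes 0 were called (median -0.38). Those with an unadjusted p under 0.05, named after their values were seen, were Ube2a at -0.74 ± 0.27 and Ube2k at -0.70 ± 0.27, both lower. The differences of largest size, of Ube2g2 (-1.78 ± 0.79), Ube2j1 (-1.58 ± 0.84) and Ube2n (-1.08 ± 0.55), had an unadjusted p above that. Of 4 other HERC genes 0 were called and 1 was lower unadjusted, Herc2 at -2.82 ± 0.65 (0.185), while Herc1 and Herc3 differed by 0.24 and 0.14. Of 47 other USP proteases 0 were called (median -0.12). At an unadjusted p under 0.05, 4 were lower, Usp10 (-2.16 ± 0.60, adjusted p = 0.277), Usp38 (-1.92 ± 0.57), Usp22 (-1.40) and Usp47 (-1.32), and 2 were higher, Usp25 (0.88) and Usp44 (0.35, below background on all 8 arrays). Of these, Usp22, Usp47, Usp25 and Usp44 were named after their values were seen. Usp45, at 1.86 ± 1.13, had an unadjusted p above 0.05. In the same comparison Usp18 stood at 6.60 and Herc6 at 4.35 on their brightest probe sets, and both were called. Ube2l6 at 4.52 (limma, adjusted p = 0.219) and Uba7 at 3.52 (0.0940) were not called. The contrast between the members and these lists was not tested.

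**Figure D5:**
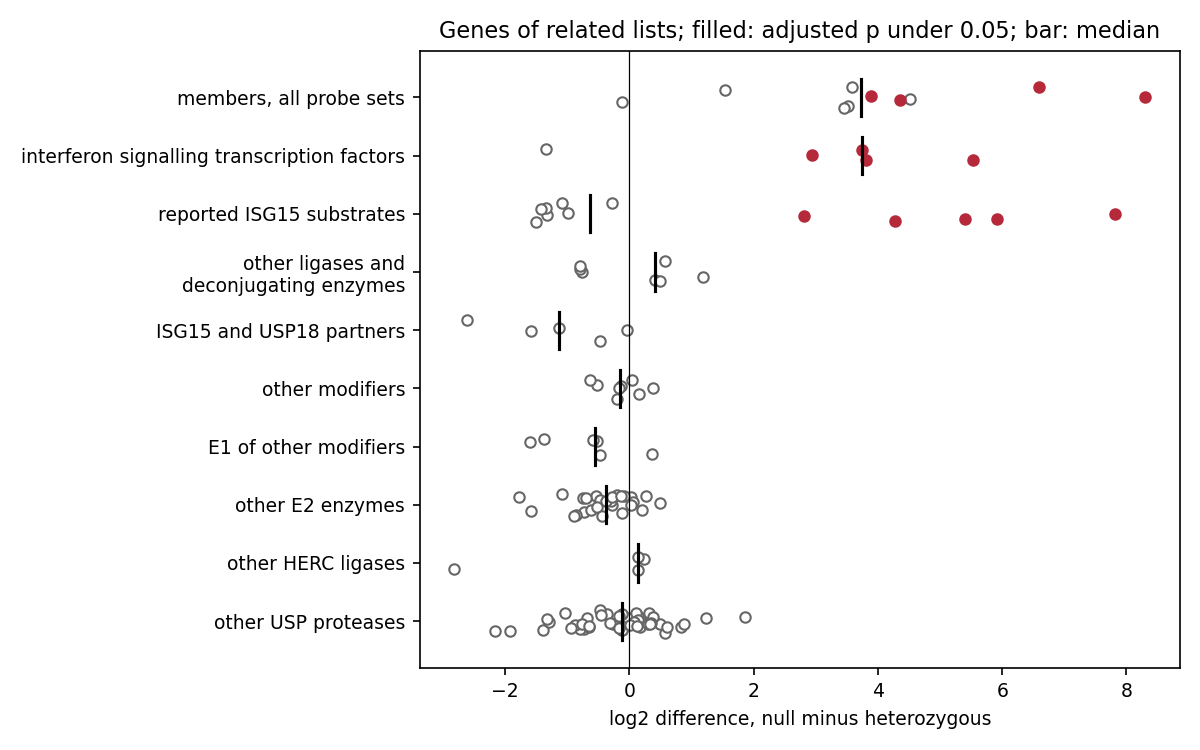
Log2 difference between null and heterozygous cells (horizontal axis) for the 10 member probe sets and for the brightest probe set of each gene in 9 related lists, with filled red symbols for an adjusted p under 0.05 and black bars at the medians. The lists of other E1, E2, HERC and USP genes hold 0 filled symbols, and the transcription factors and reported substrates hold 4 and 5.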

How the data were processed

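The authors deposited linear intensity values, 1 for each probe set and array (8 arrays), summarised with RMA per the submitters' processing notes. All per-sample columns were used (0 left out). Log2 was taken with no pseudocount, 64 control probe sets were left out and 45037 tested. Names came from the platform annotation (34945 probe sets with 1 gene, 932 with several, 9160 with none), updated by gene number.

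A 3-group model (limma 3.58.1, R 4.3.3, lmFit and eBayes) gave the comparisons between groups, and a 2-group model null against all controls, two-sided, with Benjamini-Hochberg adjusted p over all 45037 and a threshold of 0.05. Errors of differences are limma standard errors; others are standard deviations over mice. Where the dimmer group was at background on every array, the fold ("at least") is against the background. Replicate numbers follow the order of deposit and pair nothing.

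Members, lists and tests were chosen with earlier results of these data known. Named genes were all member probe sets, up to 3 genes per related list with the largest difference between null and heterozygous, and the 8 probe sets most correlated with the mean member profile. Some further genes of the related lists, among them Irf9, Irf3, Jak1, Pcna and Becn1, were named outside this rule. The test was checked on simulated data with normal noise and, for each probe set, the same spread in every group. That check does not cover groups of unlike spread. Alternatives were 3 normalizations, a pseudocount of 32, a filter (above background on at least 2 arrays), the brightest probe set per gene, array weights, an intensity trend, the compared groups alone, a sex covariate and leaving out each array. The number of arrays limits the precision.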

Additional observations from a re-analysis of the deposited data

Results flagged for a closer look

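Among the 5 control arrays, Isg15 on heterozygous array 2 stood apart from the others. It read 8.41 linear units against 5.69 to 5.97 on the other 4, so that its gap to the nearest array was 0.876 of the whole log2 range of the controls. The same array had the highest control value of Ube2l6 (16.6 units). It had the lowest control value of Uba7 1426970_a_at (18.8), Herc6 1431095_a_at (5.77) and Herc6 1453757_at (6.24). Both of these Herc6 values, and Isg15 on the other 4 control arrays, were below the background of their array, so these ranks and the gap rest on readings at the floor. Of the 10 member probe sets, only that of Isg15 had an extreme control array past the 95% limit for such a gap (0.710 for 5 arrays). Chance exceeds that limit in about 1 of 20 groups. Groups of 2 or 3 arrays were not examined in this way.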

How the results depend on the processing

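Leaving out each array in turn moved the number of the 10 member probe sets called from 3 to between 3 and 5 in null against wild type, with 5 without null array 1, from 4 to between 3 and 5 against heterozygous, and from 5 to between 4 and 6 against all controls. Heterozygous against wild type gave 0 under every alternative run. With the arrays of the compared groups alone, 1 probe set (Isg15) was called against wild type, and with the brightest probe set per gene, which tests 5 member probe sets, 3 were called against all controls. Where wild type was left with 1 array, that array is assumed to vary like the other groups. Differences near 0 changed sign. Without single arrays, Uba7 1437317_at ran from -0.221 to 0.092 in null minus all controls (0.038 with cyclic loess), from -0.545 to 0.638 in null minus wild type (-0.010 with a pseudocount of 32), from -0.299 to 0.137 in null minus heterozygous and from -0.433 to 0.751 in heterozygous minus wild type. In the last comparison Uba7 1426971_at ran from -1.048 to 0.743, Herc6 1431095_a_at from -0.084 to 0.104 and Herc6 1438037_at from -0.426 to 0.268. Over the 30 differences with null, 486 of 525 values kept direction and side of the threshold, 18 fell below it, 14 rose past it and 7 changed sign. A pseudocount of 32 shrinks differences of dim probe sets by construction.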
